A study of Arabidopsis thaliana with 8 samples.

Results

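The 56 genes described here are each represented by 1 chosen array probe. Its mean signal in Arabidopsis thaliana plants kept 1 d in air with 1% CO2 was at least 2 times that in plants at normal CO2. The chosen probes were picked from 692 probes that the platform annotation assigns to exactly 1 gene, among 3439 probes in all. A probe had to be above 0 on all 8 arrays, which 574 of the 692 were. Each array was divided by its median over all probes, so that a level of 1 is the level of the middle probe of that array. The lowest level at high CO2 then had to exceed the highest level at normal CO2, and the ratio of the group means had to reach 2. These criteria were met by 64 probes, and 8 of them were left out by name (FATB, BSD2, CTPA, PYG7, HEMA3, AT5G63290, AT2G30100 and AT4G09620). That leaves 56 probes, each of a different gene. AT2G25870 has a further single-gene probe, described below, which was lower at high CO2. AT5G39980, also on the list of names to leave out, did not meet the criteria because 1 normal CO2 array lists it at 0.

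All plants were wild type of the ecotype Columbia 0. The high CO2 group comprised 4 arrays of total RNA from plants moved for 1 d to 1% CO2 by volume, and the normal CO2 group comprised 4 arrays from plants labelled 0 d. The labels describe no plants that stayed at normal CO2 over that day, so CO2, the extra day and the transfer cannot be told apart. The labels leave out the tissue, the plants' age and whether replicates are separate plants, and more cells of a type cannot be told apart from more RNA per cell.

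Carbon dioxide and oxygen compete at Rubisco, the enzyme that fixes CO2 in the chloroplast. At high CO2 the reaction with oxygen is suppressed, photorespiration slows and more sugar is made, and plants are known to adjust transcripts of many plastid and cytosolic processes. The 56 genes were not chosen from one pathway. The files name only CML41 and PRA1.B6 among them and give the others by locus. For 36 of the 56 a protein family is stated below, as background from general knowledge of the Arabidopsis annotation and not from the files, and for 20 no function is given. Probe sequences, promoters and proteins were not used here.

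Because the same values chose the genes, the ratios below describe the choice and carry no test. The median ratio of high to normal CO2 was 2.97, and the range ran from 2.05 to 8.64. A ratio of 4 or more was found for 16 genes, 10 genes lay between 3 and 4, and 30 lay under 3. The distance between the groups also varied: the lowest high CO2 array was at least 2 times the highest normal CO2 array for 19 genes and less than 1.25 times it for 10.

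**Figure D1:**
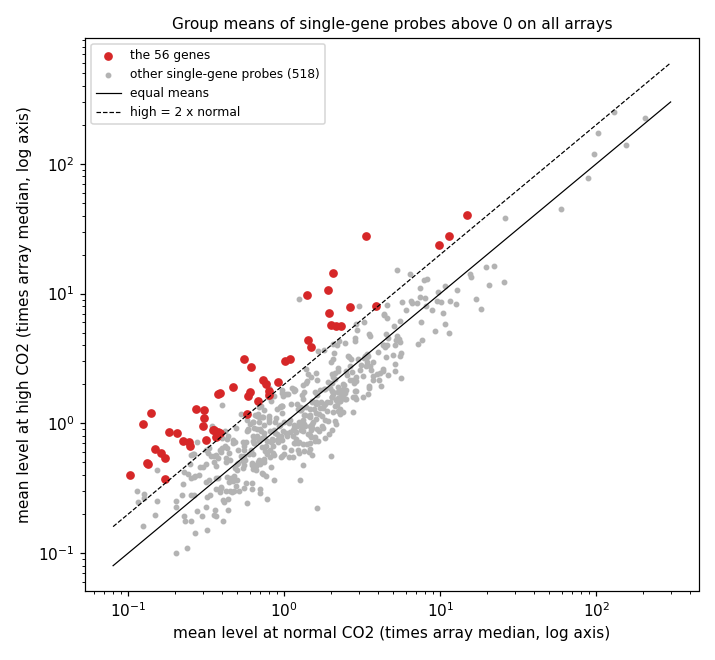
Each point is a probe with 1 gene that is above 0 on all 8 arrays, with the mean level of the 4 high CO2 arrays on the vertical axis and the mean of the 4 normal CO2 arrays on the horizontal axis, both in multiples of the array median on log axes. The 56 genes (red) lie above the dashed line of a ratio of 2 by choice, and most of them start left of 1, the median level of an array; grey points above that line either overlap between groups or were left out by name.

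Most of the 56 genes had a weak signal at normal CO2, which a choice by the ratio of high to normal CO2 itself favours. The comparison of levels with the other probes is therefore a description. A probe's signal also depends on the probe, so levels do not rank the amounts of different transcripts. Their mean level at high CO2 had a median of 1.63 and a range of 0.376 to 40.3, and their mean level at normal CO2 a median of 0.51 and a range of 0.102 to 14.8. The other 518 single-gene probes above 0 on all arrays, which include the 8 left out by name, had medians of 1.06 at high CO2 and 1.26 at normal CO2. At normal CO2, 39 of the 56 genes lay below the array median and 17 at or above it. Of the 39, 18 were above the array median at high CO2 and 21 stayed below it. The 6 genes with a mean level of 10 or more at high CO2 were AT4G19900, AT4G39760, AT3G56810, AT3G13150, AT3G06870 and AT1G51080. Adding a pseudocount of 0.0549 to the deposited intensities moved the fitted fold change of 12 genes with weak signal by over 1.5 times.

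The coefficient of variation among the 4 arrays of a group was 25.5% at high CO2 and 28.8% at normal CO2 (medians over the 56 genes). For the other 518 probes it was 26.9% at high CO2 and 19.6% at normal CO2. The choice of the 56 genes used these same arrays and favours a weak signal at normal CO2, so this comparison is a description. The difference in spread between the 56 genes and the other probes was not tested.

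**Figure D2:**
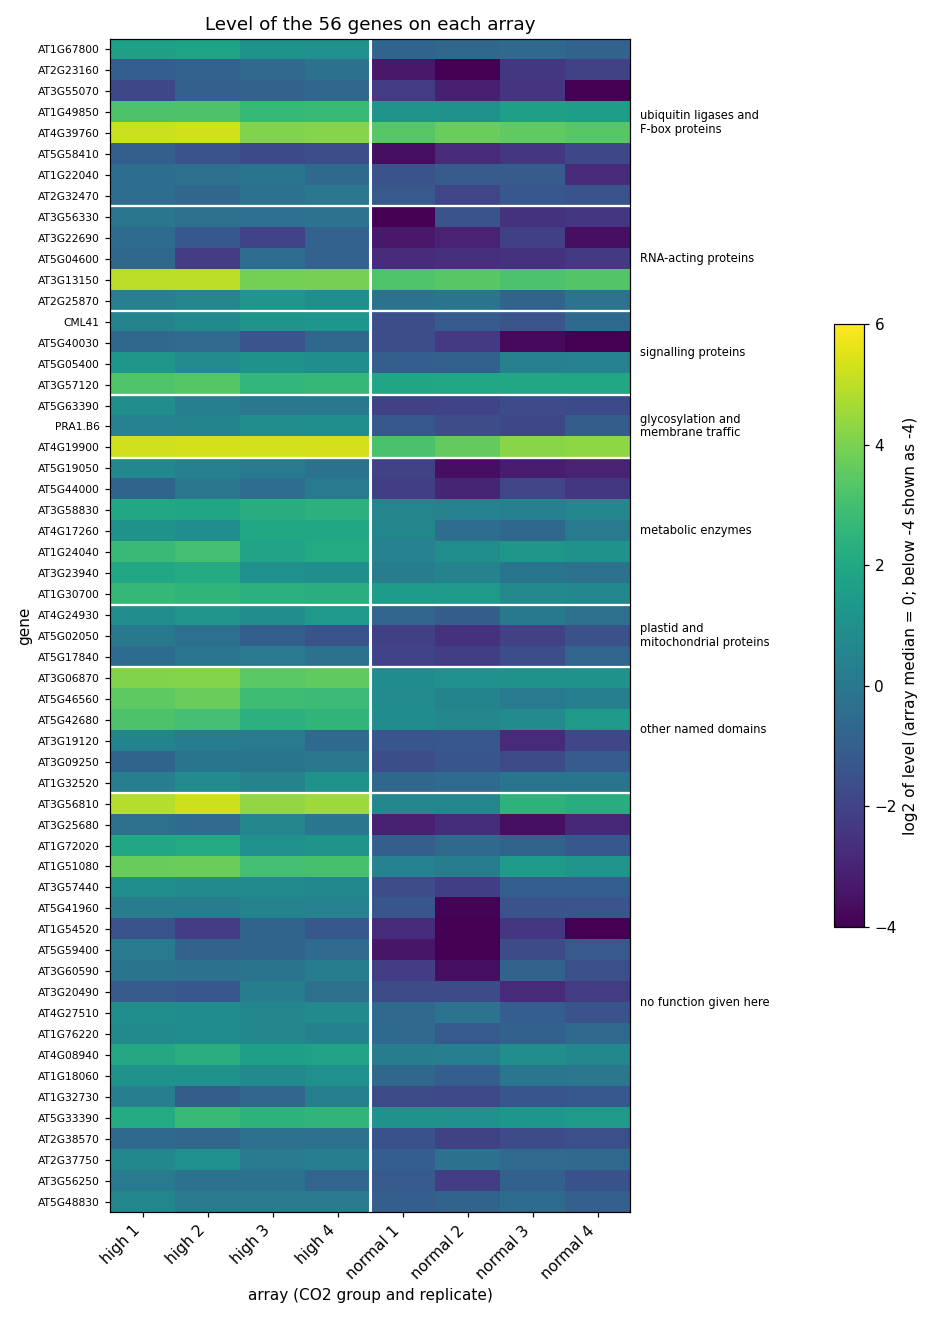
Rows are the 56 genes ordered by protein group and, within a group, by falling ratio; columns are the 4 high CO2 arrays and then the 4 normal CO2 arrays. Colour gives the log2 of the level, with the array median at 0. The high CO2 side is brighter in every row, as the choice requires, although the step is narrow in rows such as AT5G58410 and AT5G04600.

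The 10 highest ratios included probes of weak and of strong signal. In what follows, 4 values in a row are replicates 1 to 4, and means are given ± SD with n = 4 arrays. AT5G19050, an alpha/beta hydrolase, had levels of 1.57, 1.29, 1.11 and 0.838 at high CO2, against 0.237, 0.0837, 0.1101 and 0.126 at normal CO2, and the highest ratio of all, 8.64. AT3G25680 had levels of 0.804, 0.708, 1.52 and 0.947 at high CO2, against 0.117, 0.153, 0.0839 and 0.1402 at normal CO2. AT3G57440 had levels of 1.97, 1.66, 1.68 and 1.59 at high CO2, against 0.319, 0.223, 0.497 and 0.502 at normal CO2. All 3 lay far below the array median on the normal CO2 arrays and near or above it on the high CO2 arrays.

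AT3G56810 had a strong signal at high CO2. Its levels were 29.2, 37.7, 20.6 and 23.3 at high CO2, against 1.53, 1.49, 5.54 and 4.74 at normal CO2. AT1G51080 had 12.8, 13.4, 8.06 and 8.46 at high CO2, against 1.34, 1.14, 2.87 and 2.32 at normal CO2. In both genes normal CO2 replicates 3 and 4 were above replicates 1 and 2, and the high CO2 replicates 3 and 4 were below replicates 1 and 2, so the ratio differed between the pairs of arrays. It was 22.2 in replicates 1 and 2 and 4.27 in replicates 3 and 4 for AT3G56810, and 10.5 and 3.18 in the same order for AT1G51080.

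AT3G06870, a proline-rich protein, had levels of 17.3, 17.5, 10.8 and 11.8 at high CO2, against 1.81, 2.08, 2.13 and 2.16 at normal CO2. Its normal CO2 arrays were close together, and its lowest high CO2 array was 5.02 times its highest normal CO2 array, the widest gap among the 56 genes. AT5G46560, which carries the C-terminal domain of the inner nuclear membrane proteins Man1 and Src1p, had 11.3, 13.1, 7.36 and 6.98 at high CO2, against 1.77, 1.43, 1.11 and 1.25 at normal CO2. AT1G72020 had 3.93, 4.35, 2.0 and 2.28 at high CO2, against 0.514, 0.685, 0.588 and 0.421 at normal CO2. In these genes high CO2 replicates 1 and 2 were again above replicates 3 and 4. The remaining members of the 10, AT5G63390 and AT3G56330, are described with their protein groups.

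Proteins of the ubiquitin system formed the largest group with a known family, with 8 genes. For this and the other protein groups, the number of such genes among all single-gene probes was not counted. The size of a group therefore shows no excess. Ubiquitin ligases attach ubiquitin to proteins and so mark them for breakdown, and F-box proteins pick the substrates of one class of these ligases. The ratios in this group ran from 2.14 to 4.47 with a median of 2.70, and the mean levels from 0.376 to 27.7 at high CO2 and from 0.133 to 11.4 at normal CO2. AT1G67800, a RING-type ligase with a copine domain, had levels of 3.23, 3.47, 2.12 and 2.09 at high CO2, against 0.582, 0.63, 0.665 and 0.568 at normal CO2, with group means of 2.73 ± 0.728 and 0.611 ± 0.0447. The normal CO2 arrays of this gene were nearly equal, and every high CO2 array was at least 3.14 times the highest of them.

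AT2G23160, an F-box protein, had levels of 0.493, 0.5497, 0.671 and 0.834 at high CO2, against 0.0992, 0.0583, 0.194 and 0.243 at normal CO2. Its ratio of 4.28 rests on a normal CO2 mean of 0.149, far below the array median. AT4G39760, an F-box protein with kelch repeats, had a strong signal, with 36.3, 39.2, 17.1 and 18.2 at high CO2, against 10.6, 13.01, 11.7 and 10.5 at normal CO2. Its high CO2 arrays fell into a high pair and a low pair, and each array of the low pair was at least 1.31 times the highest normal CO2 array.

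The other members of this group had smaller or less even differences. AT1G49850, a RING-type zinc finger protein, had mean levels of 7.92 ± 1.54 at high CO2 and 2.66 ± 0.545 at normal CO2, a ratio of 2.98. AT3G55070, with LisH and RING-type domains, had 0.498 ± 0.147 at high CO2 and 0.133 ± 0.0775 at normal CO2. Normal CO2 replicate 4 of AT3G55070 was at 0.0317, and without that array the log2 fold change of the limma fit was 1.46, against 2.10 with all arrays. AT1G22040, a further kelch-repeat F-box protein, had 0.781 ± 0.0986 at high CO2 and 0.364 ± 0.152 at normal CO2, and AT2G32470, an F-box associated protein, 0.801 ± 0.144 at high CO2 and 0.374 ± 0.0755 at normal CO2. AT5G58410, a ligase of the listerin type, which in yeast and mammals acts on polypeptides stuck in stalled ribosomes, had 0.376 ± 0.0946 at high CO2 and 0.173 ± 0.0822 at normal CO2. Its groups were the closest of all 56 genes, with a lowest high CO2 level of 0.293 and a highest normal CO2 level of 0.277.

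**Figure D3:**
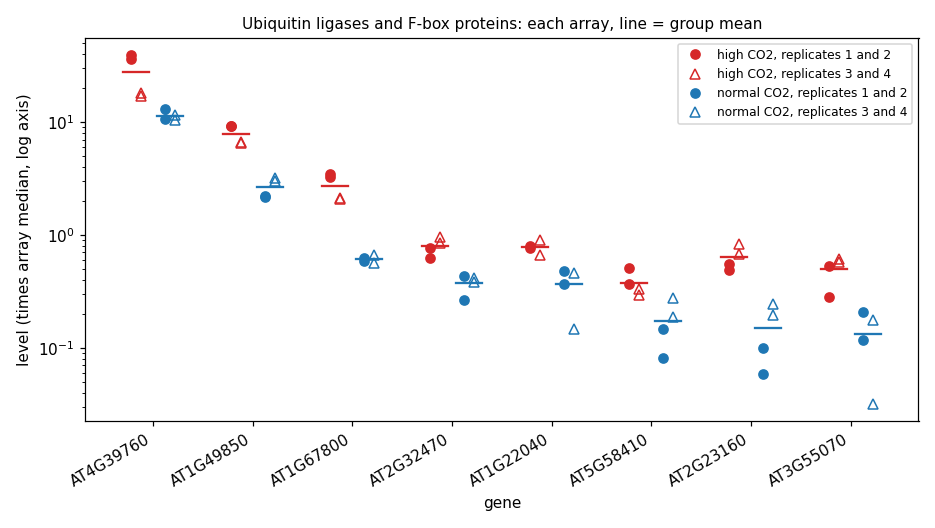
Levels of the 8 ubiquitin ligase and F-box genes on every array, in multiples of the array median on a log axis, high CO2 in red left of normal CO2 in blue; circles are replicates 1 and 2, open triangles replicates 3 and 4, and lines are group means. The circles lie above the triangles at high CO2 in AT4G39760, AT1G49850, AT1G67800 and AT5G58410, and below them in AT2G23160, AT3G55070 and AT2G32470.

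Proteins that act on RNA numbered 5, with ratios of 2.22 to 4.68 and a median of 3.13. AT3G56330, a tRNA methyltransferase, had levels of 0.951, 0.802, 0.794 and 0.872 at high CO2, against 0.00436, 0.368, 0.173 and 0.186 at normal CO2. Its high CO2 arrays were close together, whereas normal CO2 replicate 1 was close to 0. Without that array the log2 fold change was 1.85, against 3.21 ± 1.20 (SE) with all 8, and without normal CO2 replicate 2 it was 3.95. AT3G22690 and AT3G13150 are pentatricopeptide repeat proteins, a large plant family that binds organelle transcripts and takes part in their editing, splicing or stability.

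AT3G22690 had levels of 0.726, 0.418, 0.255 and 0.552 at high CO2, against 0.1004, 0.1198, 0.232 and 0.0838 at normal CO2, and only a narrow step separated high CO2 replicate 3 from normal CO2 replicate 3. AT3G13150 had a strong signal, with 31.3, 32.2, 15.2 and 15.5 at high CO2, against 9.51, 10.7, 9.07 and 10.03 at normal CO2. Its high CO2 replicates 3 and 4 were well below replicates 1 and 2, as in the F-box gene AT4G39760. In all, 26 of the 56 genes (46.4%) had both of replicates 1 and 2 above replicates 3 and 4 at high CO2, against 34.7% of the 518 other probes. This count depends on the scaling: with the values as deposited it was 14 (25%), against 14.3% of the other probes. AT5G04600, with an RNA recognition motif, had 0.642, 0.219, 0.738 and 0.547 at high CO2, against 0.151, 0.161, 0.171 and 0.202 at normal CO2, so that high CO2 replicate 2 was little above the normal CO2 arrays and the other high CO2 arrays were well above them.

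AT2G25870 encodes an endoribonuclease of the YbeY type, which in bacteria matures ribosomal RNA, joined to a haloacid dehalogenase domain. The chosen probe had levels of 1.29, 1.51, 2.32 and 1.98 at high CO2, against 0.855, 0.8896, 0.5803 and 0.879 at normal CO2. The gene has another single-gene probe, which the criteria did not use, with levels of 1.21, 1.09, 1.24 and 1.47 at high CO2, against 1.84, 2.11, 2.51 and 2.38 at normal CO2. On that probe every high CO2 array was below every normal CO2 array. Its log2 fold change by limma was -0.85 ± 0.16 (SE, adjusted p = 0.00652 over all 3154 probes tested), the opposite direction to that of the chosen probe at 1.09 ± 0.24 (SE). No other gene among the 56 has a further single-gene probe in the annotation, so the direction could be checked in this way for AT2G25870 alone.

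Signalling proteins numbered 4, with ratios of 2.09 to 4.11. CML41, a calmodulin-like protein that is known for a role in closing plasmodesmata during defence, had levels of 1.404, 1.67, 2.24 and 2.37 at high CO2, against 0.334, 0.475, 0.391 and 0.669 at normal CO2. Its ratio was 3.79 in replicates 1 and 2 and 4.35 in replicates 3 and 4. CML30, the other gene of that name with a probe of its own and not among the 56, had levels of 7.34, 7.41, 8.78 and 10.3 at high CO2, against 5.75, 6.97, 6.995 and 6.84 at normal CO2, and the limma fit put it at 0.20 ± 0.20 (log2 fold change ± SE), with an adjusted p of 0.469. The difference between the CML genes was not tested.

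AT5G40030, a protein kinase, had levels of 0.6303, 0.706, 0.387 and 0.626 at high CO2, against 0.328, 0.203, 0.0737 and 0.0493 at normal CO2. Its normal CO2 replicates 1 and 2 were several times as high as replicates 3 and 4, so the ratio was 2.52 in the first pair and 8.23 in the second. AT3G57120, also a protein kinase, had 8.05 ± 2.16 at high CO2 and 3.86 ± 0.0692 at normal CO2, where its coefficient of variation was the lowest of the 56 genes. AT5G05400, of the nucleotide-binding and leucine-rich repeat family of immune receptors, had 2.09 ± 0.287 at high CO2 and 0.9102 ± 0.458 at normal CO2.

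Glycosylation and membrane traffic were represented by 3 genes. AT5G63390, of the O-fucosyltransferase family, had levels of 1.97, 1.25, 0.967 and 1.03 at high CO2, against 0.236, 0.249, 0.311 and 0.294 at normal CO2, a ratio of 4.77. PRA1.B6, a prenylated RAB acceptor, a class of small membrane proteins of the secretory pathway, had 1.35, 1.44, 1.93 and 1.98 at high CO2, against 0.419, 0.318, 0.283 and 0.488 at normal CO2, a ratio of 4.44. PRA1.B3, the other gene of that family with a probe of its own, was listed at 0 on high CO2 replicates 2 and 3 and at 0.0182 and 0.0930 on replicates 1 and 4, against 0.373, 0.353, 0.191 and 0.353 at normal CO2. It was therefore low at high CO2, where PRA1.B6 was high, but it had too few values above 0 to enter the fit.

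AT4G19900, of the alpha 1,4-glycosyltransferase family, had levels of 38.97, 40.9, 40.4 and 40.9 at high CO2, against 8.64, 12.2, 18.8 and 19.8 at normal CO2. The high CO2 arrays were nearly equal, with a coefficient of variation of 2.27%, the least at high CO2 among the 56 genes, while the normal CO2 arrays were spread, with replicates 3 and 4 above replicates 1 and 2. The ratio of the means was 2.71.

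Enzymes of metabolism numbered 7, with AT5G19050 above and ratios of 2.62 to 4.15 for the others. AT5G44000, of the glutathione S-transferase family, had levels of 0.579, 1.004, 0.745 and 1.06 at high CO2, against 0.228, 0.127, 0.267 and 0.194 at normal CO2. AT3G58830, a phosphatidylglycerophosphate phosphatase that makes the phospholipid of plastid membranes, had 4.36 ± 0.696 at high CO2 and 1.42 ± 0.104 at normal CO2, a ratio of 3.07. AT3G23940, a dihydroxyacid dehydratase of branched-chain amino acid synthesis, had 3.11 ± 1.28 at high CO2 and 1.09 ± 0.245 at normal CO2. In each of these 3 enzymes the groups were well separated, with every high CO2 array at least 1.43 times the highest normal CO2 array.

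AT4G17260, a lactate dehydrogenase, which regenerates NAD from NADH when oxygen is short, had 3.001 ± 1.07 at high CO2 and 1.02 ± 0.391 at normal CO2. Its ratio was 1.81 in replicates 1 and 2 and 4.45 in replicates 3 and 4. AT1G24040, an acetyltransferase of the GNAT type, had 5.73 ± 2.11 at high CO2 and 1.99 ± 0.464 at normal CO2. Here the larger ratio was in the other pair, at 4.496 in replicates 1 and 2 and 1.72 in replicates 3 and 4. AT1G30700, an oxidoreductase like the berberine bridge enzyme, had 5.61 ± 0.636 at high CO2 and 2.14 ± 0.614 at normal CO2.

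A further 3 genes were grouped by the plastid or mitochondrion alone, although some of the enzymes and RNA-acting proteins above also belong to these organelles. AT4G24930, a protein of the thylakoid lumen, had levels of 1.896, 2.31, 1.902 and 2.58 at high CO2, against 0.593, 0.479, 1.03 and 0.816 at normal CO2. AT5G02050, of the mitochondrial glycoprotein family, had 1.04, 0.7902, 0.504 and 0.368 at high CO2, against 0.231, 0.1703, 0.248 and 0.346 at normal CO2, and its high CO2 replicate 4 was barely above normal CO2 replicate 4. AT5G17840, with the cysteine-rich domain of DnaJ chaperones, had 0.896 ± 0.154 at high CO2 and 0.351 ± 0.1699 at normal CO2.

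Of the genes with other domains, AT5G42680 (DUF617, a domain of plant proteins) had mean levels of 7.105 ± 1.89 at high CO2 and 1.94 ± 0.445 at normal CO2, a ratio of 3.66. AT3G19120, derived from a transposase of the PIF type, had 1.09 ± 0.3198 at high CO2 and 0.305 ± 0.121 at normal CO2. AT3G09250, of the nuclear transport factor 2 family, had 0.5802, 0.9304, 0.914 and 0.995 at high CO2, against 0.335, 0.395, 0.312 and 0.473 at normal CO2. High CO2 replicate 1 of AT3G09250 stood apart below the other 3 and was still above all normal CO2 arrays. AT1G32520, a TLDc domain protein, had 1.64 ± 0.452 at high CO2 and 0.798 ± 0.152 at normal CO2, and its ratio of 2.06 was next to the lowest of all.

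The 20 genes without a stated function had ratios of 2.05 to 8.33 with a median of 2.90, so they covered nearly the whole range of the set. AT5G41960 had levels of 1.19, 1.14, 1.39 and 1.35 at high CO2, against 0.396, 0.06701, 0.373 and 0.393 at normal CO2. Normal CO2 replicate 2 lay far below the other 3, and without it the log2 fold change was 1.62, against 2.26 with all arrays. AT1G54520 had a mean level of 0.398 ± 0.155 at high CO2 and 0.102 ± 0.0779 at normal CO2, and its log2 fold change was 1.58 without normal CO2 replicate 4, against 2.38 with all arrays. AT5G48830, with the lowest ratio, had 1.51, 1.099, 1.09 and 1.06 at high CO2, against 0.4899, 0.584, 0.724 and 0.518 at normal CO2.

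In the same group, AT5G33390 had a mean level of 5.61 at high CO2 and 2.31 at normal CO2, and AT4G08940 had 3.89 at high CO2 and 1.48 at normal CO2. AT1G18060, AT4G27510, AT1G76220 and AT2G37750 crossed the array median, with means of 2.001, 1.75, 1.61 and 1.48 at high CO2, against 0.767, 0.604, 0.582 and 0.675 at normal CO2. The means of AT5G59400, AT3G60590, AT3G20490, AT1G32730, AT2G38570 and AT3G56250 were below the array median in both groups. Of these 6, AT3G60590 had 0.949 at high CO2 and 0.301 at normal CO2, and AT2G38570 had 0.742 at high CO2 and 0.314 at normal CO2. AT3G20490 had 0.717 at high CO2 and 0.247 at normal CO2, with a ratio of 1.398 in replicates 1 and 2 and 5.49 in replicates 3 and 4. AT5G59400 had a mean of 0.737 at high CO2 and 0.223 at normal CO2, with a ratio of 10.96 in replicates 1 and 2 and 1.73 in replicates 3 and 4.

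Within a group, replicates 1 and 2, and replicates 3 and 4, were more alike than arrays of different pairs. The correlations of log2 levels across probes were 0.903 and 0.92 within pairs and 0.854 to 0.874 between pairs at high CO2, and 0.972 and 0.954 within pairs and 0.903 to 0.908 between pairs at normal CO2. What the pairs are is not given in the labels. A ratio of 2 or more was reached in both pairs by 37 of the 56 genes, only in replicates 1 and 2 by 14 (25%), and only in replicates 3 and 4 by 5 (8.93%). The choice by a ratio of 2 over all arrays requires a ratio of 2 in at least 1 pair, so these counts are largely set by it. Apart from those left out by name, the 518 other probes failed the separation or the ratio, so their shares are also largely set by the choice. Of the 518, 1.16% reached 2 in both pairs, 11.2% only in replicates 1 and 2 and 4.05% only in replicates 3 and 4. The pair ratios were within 2-fold of each other for 37 genes (66.1%), against 383 of the 518 other probes (73.9%). The ratio of replicates 1 and 2 was at least 2 times that of replicates 3 and 4 for 15 genes (26.8%), and the opposite held for 4 (7.14%), against 12.4% and 13.7% of the 518 other probes. These counts changed with the scaling of the arrays.

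At high CO2, replicates 1 and 2 both lay above replicates 3 and 4 for 26 genes (46.4%) and both below for 14 (25%), against 34.7% and 24.1% of the 518 other probes. With the values as deposited these counts were 14 (25%) and 26 (46.4%), against 14.3% and 43.8% of the other probes. The array medians move with this pattern: they were 0.215, 0.212, 0.28 and 0.272 for high CO2 replicates 1 to 4 and 0.256, 0.255, 0.221 and 0.227 for normal CO2 replicates 1 to 4, in the deposited relative intensity. With the values as deposited, a ratio of 2 or more was reached in both pairs by 41 genes, only in replicates 1 and 2 by 6 and only in replicates 3 and 4 by 9. On that scale the ratio of replicates 1 and 2 was at least 2 times that of replicates 3 and 4 for 4 genes (7.14%). The opposite held for 10 (17.9%), against 4.83% and 27% of the other probes. The pair with the larger ratio in more of the 56 genes thus changed with the scaling. Both scales use the same arrays that chose the 56 genes, and most of the other probes failed that choice. Nothing is therefore read from the differences between these shares. The part of the array scaling in the pair differences was not tested further.

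**Figure D4:**
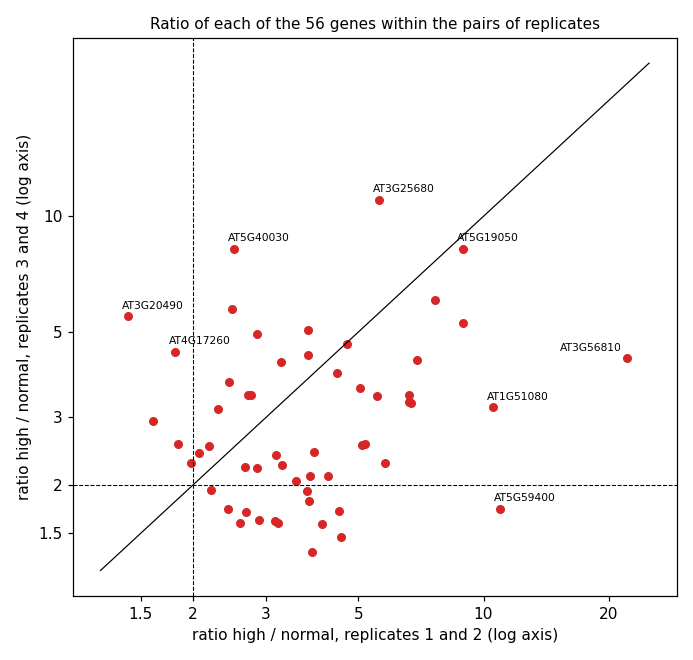
Each point is 1 of the 56 genes, with its ratio of mean level at high over normal CO2 in replicates 1 and 2 on the horizontal axis and in replicates 3 and 4 on the vertical axis (log axes, dashed lines at 2, solid line for equal ratios). AT3G56810 lies farthest to the right at 22.2 and AT3G25680 highest at 11.0; the 19 genes below or left of a dashed line reached 2 in only 1 pair.

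In a comparison of the groups across all 3154 probes with enough values (limma, quantile-normalized log2 intensities, Benjamini-Hochberg adjustment), 54 of the 56 genes passed the threshold of 0.05, where 14.3% of all probes tested were higher at high CO2. Since the genes were chosen on this same contrast, nothing is read from that count. The 2 that did not pass, AT3G56330 and AT1G54520, each have a normal CO2 array near 0. The median log2 fold change was 1.52 over the 56 genes and -0.16 over all probes tested. With the pairs of arrays as a random block, 31 of the 56 passed, where 7.45% of all probes were higher. By protein group, 4 of the 8 ubiquitin-system genes, 1 of the 5 RNA-acting genes, 2 of the 4 signalling genes, 3 of the 3 glycosylation and traffic genes, 6 of the 7 enzymes and 1 of the 3 plastid and mitochondrial genes passed with that block, as did 3 of the 6 with other domains and 11 of the 20 without a stated function. The same choice lies behind the counts with the block, so nothing is read from them or from their differences between groups.

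Around the limits of the choice, AT1G29700 (ratio 1.98), AT4G15840 (1.97) and AT3G53580 (1.95) had groups that did not overlap and missed the ratio of 2, whereas AT3G57120 (2.09), AT1G32520 (2.06) and AT5G48830 (2.05) were the lowest that met it. In all, 40 single-gene probes were separated in the same direction with a ratio under 2, and 15 reached a ratio of 2 with groups that overlapped. The highest of the 15 was AT3G14890, with a ratio of 2.89, a lowest high CO2 level of 0.183 and a highest normal CO2 level of 0.227. Among all probes above 0 on the 8 arrays, named or not, 10.1% met the separation and the ratio of 2, against 11.1% of the single-gene probes.

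Levels were also set against the order of probe numbers. Another of the 56 genes lay within 6 probe numbers for 7 of the 56 (12.5%), and one of the 56 lay within that distance of 64 of the 518 other single-gene probes (12.4%). Leaving aside the 64 probes that met the criteria, the 390 tested probes that lie within 6 numbers of one of the 56 had a median log2 fold change of 0.06, and 18.5% of them were higher at high CO2 by limma. The 2700 probes farther away had a median of -0.20, and 11.8% were higher. The part of probe position in the levels of the 56 genes was not tested.

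On the chromosomes of the gene table, 17 of the 56 genes (30.4%) lay on chromosome 3 and 16 (28.6%) on chromosome 5. Chromosome 1 held 12 (21.4%), chromosome 4 held 6 (10.7%) and chromosome 2 held 5 (8.93%). Of the 518 other single-gene probes, 17.4% were on chromosome 3, 18.0% on chromosome 5, 23.4% on chromosome 1, 20.3% on chromosome 4 and 20.7% on chromosome 2. The closest pair in the order of protein-coding genes was AT3G56250 and AT3G56330, 7 places apart. They are followed on the same chromosome by AT3G56810 after 48 places, AT3G57120 after 34 and AT3G57440 after 32. These counts are descriptions with no test.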

How the data were processed

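The deposited table holds 1 relative intensity per probe and array on a linear scale from 0 to 100, per the file's values. How the authors treated background or normalized the deposited intensities is not given in the sources used here. Probe genes came from the platform annotation, with 692 probes of 1 gene (690 matched to the gene table of assembly TAIR10.1), 870 of several genes and 1877 unnamed. The criteria for the 56 genes were applied to intensities divided by the array median.

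For the fit, values at 0 were set missing, log2 intensities were quantile-normalized, probes with at least 3 values per group were kept, and high CO2 was compared with normal CO2 in limma 3.58.1 (R 4.3.3), adjusted over 3154 probes. The script was tested on simulated data with independent noise between arrays, so the test did not cover pairs of arrays that are alike. BSD2, CTPA and PYG7 were taken to be AT3G47650, AT5G46390 and AT1G22700. The genes, lists and alternatives were chosen with earlier results of these data known. Planned keyword classes needed product names, which were not used here, so protein groups were assigned by hand. Values on every array are given for the 10 highest ratios, the 2 highest of each protein group and genes with a further probe or an outlying array; AT4G39760, AT3G13150, AT4G19900 and AT5G04600 were added after their values were seen. Nothing in the labels shows separate plants, so p-values measure only the spread between arrays. The number of arrays limits the precision.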

Additional observations from a re-analysis of the deposited data

Results flagged for a closer look

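Among 112 groups of 4 arrays (56 genes at high and at normal CO2), 5 had an array whose gap to the nearest of the others took up an unusually large share of the group's range on the log2 scale, where chance gives about 5.6 (about 1 in 20). The share was 0.966 for AT5G41960 at normal CO2, where replicate 2 had a level of 0.0670 and the others 0.373 to 0.396. It was 0.829 for AT3G56330 at normal CO2, where replicate 1 had a level of 0.00436 and the others 0.173 to 0.368. For AT2G25870 at normal CO2 it was 0.907, with replicate 3 at 0.580 and the others at 0.855 to 0.890. For AT3G09250 at high CO2 it was 0.843, with replicate 1 at 0.580 and the others at 0.914 to 0.995. For AT5G48830 at high CO2 it was 0.907, with replicate 1 at 1.51 and the others at 1.06 to 1.10.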

How the results depend on the processing

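The number of genes that met the criteria was 56 and stayed between 53 and 65 when each array was left out in turn, with 52 to 56 of the genes shared. It was 60 with the values as deposited, 53 after quantile normalization, 59 with geometric means and 62 with values at 0 allowed. A ratio of 1.5 gave 91 genes and a ratio of 3 gave 26. Scaling on the probes above 0 on all arrays, chosen after seeing the data, gave 56. With the pairs of arrays as a random block (correlation 0.551), 442 probes changed, 235 of them higher, and 31 of the 56 genes passed, against 1029, 452 and 54 without it. Leaving out each array gave 730 to 914 changed probes, 353 to 406 higher ones, and 45 to 50 of the 56 genes. The fold changes of the 56 genes gave 935 values under 17 alternatives, of which 0 changed sign, which the choice of separated groups nearly fixes. A pseudocount of 0.0549 moved 12 genes by over 1.5 times, among them AT3G56330 (log2 fold change 1.49), AT5G19050 (2.03), AT3G25680 (1.83), AT1G54520 (0.99), AT3G55070 (1.06) and AT5G40030 (1.13). Replicates 1 and 2 alone moved 14 genes by over 1.5 times and replicates 3 and 4 alone also 14, among them AT5G58410 (1.99 and 0.36 against 1.16 with all arrays), AT5G02050 (2.14 and 0.45 against 1.29) and AT5G05400 (1.95 and 0.63 against 1.28). The cause was not tested. CML30 turned to -0.073 (adjusted p = 0.766 by limma) in replicates 1 and 2 alone; its adjusted p was 0.0818 to 0.788 over all alternatives. The other probe of AT2G25870 passed under all 17, with an adjusted p of 0.00310 to 0.0401. The deviations of arrays with the same number had correlations of 0.0639, 0.0999, 0.129 and 0.0708, so the numbers were not taken to pair the arrays; the replicate block called 845 probes, 404 of them higher, and 48 of the 56 genes.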
